A study of Homo sapiens with 8 samples.

Results

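RelA, the transactivating subunit of NF-κB, is switched on and off in the nucleus by enzymes that add or remove small groups and by ligases that mark it for destruction. The transcripts of 9 such genes were followed here: the methyltransferase genes SETD7, NSD1 and PRMT5, the demethylase gene KDM2A, the deacetylase genes HDAC3 and SIRT1, and COMMD1, PDLIM2 and SOCS1, whose products act in RelA degradation. They were chosen by name from what their products are known to do to RelA, with earlier results of these data known. They were matched by symbol to the gene identifiers of release 29 of the GENCODE annotation. All 9 were found among the 58735 genes of the deposited values, and all 9 were among the 16528 genes with enough reads to be tested. The cells were U2OS, an established human osteosarcoma line, transduced with a control shRNA (control cells, WT in the labels) or with an shRNA against WSB2 (KD cells). Each kind was left without TNF-α or stimulated with TNF-α for 5 h, which gave 4 groups of 2 libraries and 8 libraries in all. The cells of all groups carried an integrated lentiviral shRNA vector and had been selected with puromycin, so the controls share the vector and the selection. A single WSB2 shRNA was sequenced. Nothing in the labels says that the 2 libraries of a group came from separate cultures, so the p-values measure only the spread between these libraries.

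TNF-α frees RelA from its cytoplasmic inhibitor, and RelA then enters the nucleus, binds DNA and induces, among others, the gene of that same inhibitor. SETD7, called Set9 in the study, places single methyl groups on lysines of RelA, and these marks have been tied to removal of RelA from chromatin by ubiquitination. WSB2 and its close relative WSB1 are substrate receptors of cullin-based ubiquitin ligases, and the study asked whether they read this methyl mark. The comparison of KD with control cells therefore bears on whether the transcripts of the other writers, erasers and ligases of RelA differed when WSB2 was reduced.

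Values are FPKM, fragments scaled to exon length and library size, as a guide to levels between genes and between libraries. Exon length counts all annotated exons of a gene, in use or not, so the order between genes is approximate. Differences are log2 fold changes of FPKM + 1, tested with limma over all 8 libraries and adjusted by the Benjamini-Hochberg method over all 16528 genes. A gene was called at an adjusted p under 0.05. The libraries held 15601098 to 18677023 reads. Both unstimulated KD libraries stood apart from the other 6. Mitochondrial genes took 4.0998% and 4.42% of their reads, against 1.11% to 2.03% in the others. The mean GC content weighted by reads was 49.9% and 49.4% in them, against 52.5% to 53.2%. The authors' scaling divided them by 1.21 times their total, against 0.925 to 1.03 times in the others. KD against control without TNF-α, and TNF-α in KD cells, rest on these 2 libraries and cannot be given without them.

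WSB2 was at 27.7 and 28.0 FPKM in control cells and at 8.38 and 8.52 FPKM in KD cells without TNF-α, and at 24.995 and 25.3 against 9.002 and 9.18 FPKM with it. NFKBIA, the gene of the RelA inhibitor, rose with TNF-α by 2.76 on the log2 scale in control cells and by 3.34 in KD cells, and TNFAIP3, the gene of another feedback inhibitor, rose by 3.87 and 3.57. The mesenchymal and bone genes VIM, COL1A1, SPARC and CD44 lay between 24.5 and 293 FPKM, and RUNX2, a bone transcription factor, between 1.29 and 2.94 FPKM. The leukocyte, endothelial, epithelial and liver genes PTPRC, PECAM1, EPCAM, CDH1 and ALB were all below 0.5 FPKM.

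All 9 genes were transcribed in every library, with 77 to 3575 reads per gene and library. In unstimulated control cells PRMT5 was the highest of the 9 at 33.6 ± 0.724 FPKM (SD, n = 2). COMMD1 followed at 16.8 ± 5.86, HDAC3 at 14.3 ± 0.975, KDM2A at 10.7 ± 2.38 and SOCS1 at 7.88 ± 1.73 FPKM. The lowest were NSD1 at 5.18 ± 1.90, SETD7 at 4.62 ± 1.55, PDLIM2 at 4.52 ± 0.947 and SIRT1 at 3.47 ± 0.572 FPKM. In this order the libraries of COMMD1 and HDAC3 overlapped, as did those of KDM2A and SOCS1, and each of the last 4 overlapped the gene next to it among them. In unstimulated KD cells PRMT5 was again the highest, at 18.5 ± 0.967 FPKM, but NSD1 stood next at 11.2 ± 1.13 FPKM and PDLIM2 was the lowest at 2.20 ± 0.160 FPKM. With TNF-α the order of group means was similar in the 2 kinds of cells, with PRMT5 first in both and SOCS1, overlapping SIRT1, last in both.

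**Figure D1:**
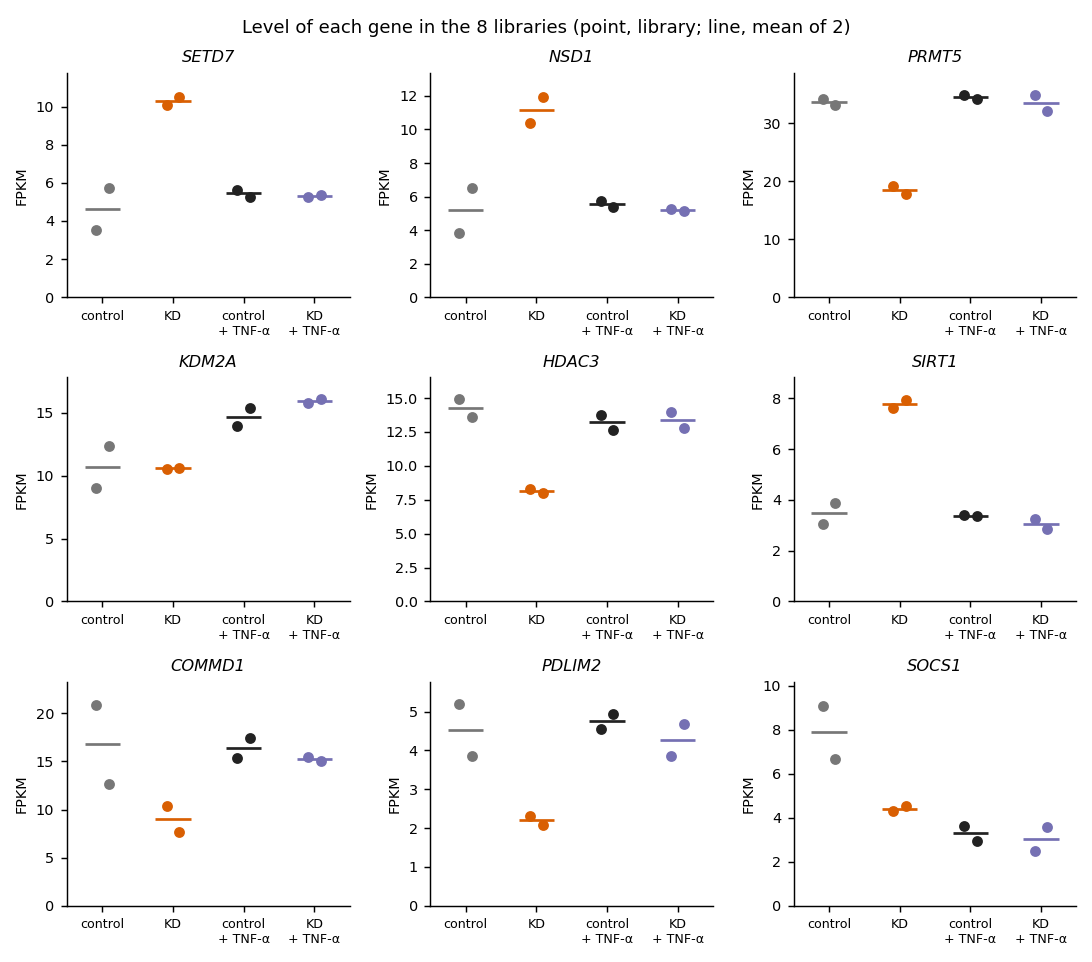
Level of each of the 9 genes in FPKM (vertical axis, from 0) in the 4 groups (horizontal axis). Each point is 1 library and each line the mean of 2. In the panels of SETD7, NSD1 and SIRT1 the unstimulated KD libraries lie above the other 6, in those of PRMT5, HDAC3, COMMD1 and PDLIM2 they lie below, and in that of SOCS1 the unstimulated control libraries are the highest.

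Without TNF-α, 8 of the 9 genes differed between KD and control cells. SETD7, NSD1 and SIRT1 were higher in KD cells, and PRMT5, HDAC3, COMMD1, PDLIM2 and SOCS1 were lower. KDM2A did not pass the test. The 3 higher genes compare with 29.8% of all genes tested that were called higher, and the 5 lower genes with 30.2% called lower. In bulk RNA, a change in all cells and a change in some of them cannot be told apart. The median log2 fold change of the 9 genes was -0.70, against -0.00 over all genes, and the median of its absolute size was 0.80 against 0.40. The genes were not matched for level, and adding 1 to FPKM understates fold changes most in low genes. Scaling to total reads, in place of the authors' scaling, moved the median of all genes to 0.13 and the share of called genes that were higher from 49.7% to 65.3%. Under it the 8 calls and their directions stayed, with SETD7 at 1.29 and SOCS1 at -0.47.

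With TNF-α, none of the 9 genes passed the test between KD and control cells. Their log2 fold changes ran from -0.13 for PDLIM2 to 0.11 for KDM2A. The lowest bound of any of the 9 genes' 95% intervals was -0.60 and the highest 0.42, and each gene's own interval sets what was not detectable for it. None had an unadjusted p under 0.05 with limma and none was called by voom on the recovered reads. Few genes of any kind were called, 0.0605% of those tested as higher and 0.0545% as lower. KDM2A was higher in both KD libraries than in both control libraries, and NSD1 and SIRT1 were lower, where 23.9% of all genes tested were higher and 22.3% lower without overlap. WSB2 itself was called at -1.37 (standard error, SE, 0.0685, adjusted p = 0.00113 from limma). Without the second stimulated KD library its value was -1.39 and the call was lost.

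TNF-α alone, in control cells, moved 1 of the 9 genes past the test. SOCS1 fell, where 1.14% of all genes tested fell. None rose, where 3.1% of all genes tested rose. Of the other 8 genes, KDM2A had an unadjusted p under 0.05. The groups did not overlap for KDM2A and PRMT5, both higher with TNF-α, and for SOCS1, lower, where 22.6% of all genes tested were higher and 19.9% lower without overlap. The value of PRMT5, 0.04, turned to -0.0307 under upper-quartile scaling and to -0.0380 under scaling to total reads. The share of called genes that rose was 73.0%, and 63.0% and 60.3% under these scalings. The median log2 fold change of the 9 genes was 0.04, against 0.01 over all genes. In a fit of the 6 libraries without the unstimulated KD libraries, which was chosen after seeing the data, SOCS1 was again called. Leaving out the second unstimulated control library added KDM2A and also SETD7 (0.51, adjusted p = 0.0160 from limma) and NSD1 (0.44, adjusted p = 0.0438 from limma) to the calls.

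TNF-α in KD cells was compared with the same unstimulated KD libraries that the first comparison used, so the 2 comparisons share them and are given side by side without a measure of their likeness. PRMT5, KDM2A, HDAC3, COMMD1 and PDLIM2 were higher with TNF-α, and SETD7, NSD1 and SIRT1 were lower. SOCS1 did not pass. The log2 fold changes were 0.82 for PRMT5, 0.71 for COMMD1 and for PDLIM2, 0.65 for HDAC3 and 0.55 for KDM2A, and -1.11 for SIRT1, -0.97 for NSD1 and -0.84 for SETD7, with adjusted p between 1.05e-04 and 0.0217 from limma. The 5 higher genes compare with 31.1% of all genes tested that were called higher, and the 3 lower genes with 31.4% called lower. Scaling to total reads moved the median of all genes to -0.19 and the share of called genes that were higher from 49.8% to 31.4%. Under it KDM2A (0.20) and COMMD1 (0.37) were no longer called and SOCS1 (-0.75) was. SOCS1 was also called without either unstimulated control library or without the second stimulated KD library, at adjusted p values of 0.0341, 0.0337 and 0.0338.

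**Figure D2:**
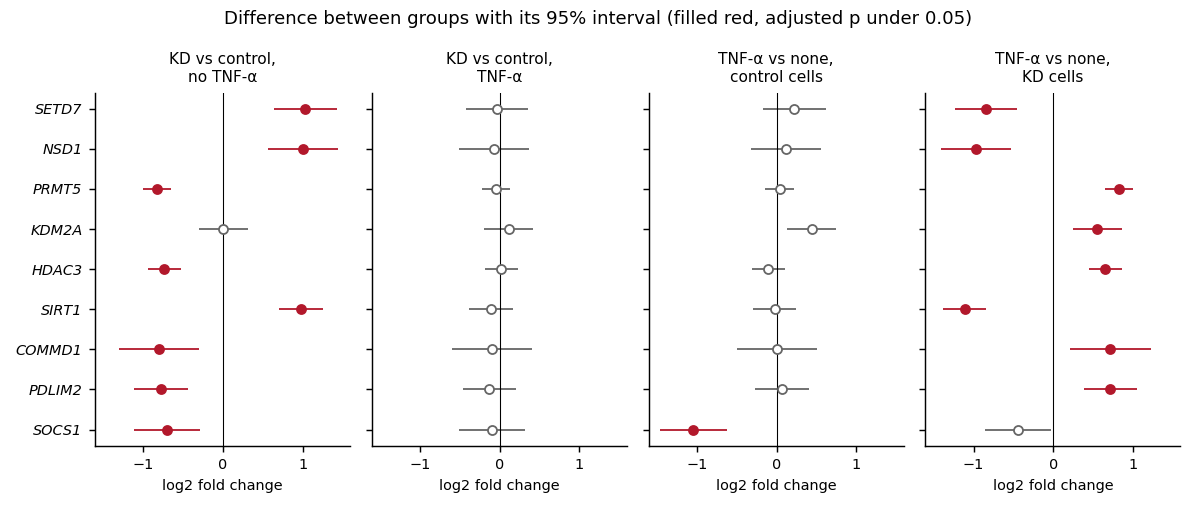
Log2 fold change of FPKM + 1 (horizontal axis) of the 9 genes (rows) in 4 comparisons (panels), with 95% intervals from limma over 8 libraries; filled red points have an adjusted p under 0.05. In the panel of KD against control with TNF-α every interval covers 0, and in that of TNF-α in control cells only the interval of SOCS1 is marked as called.

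The test of whether the KD difference was the same with and without TNF-α, the interaction, passed for 6 of the 9 genes. It was above 0 for PRMT5, HDAC3 and PDLIM2, and below 0 for SETD7, NSD1 and SIRT1. Over all genes tested 23.8% were called above 0 and 22.3% below. COMMD1, SOCS1 and KDM2A did not pass. Without the second unstimulated control library COMMD1 (1.05, adjusted p = 0.00506 from limma) and SOCS1 (0.80, adjusted p = 0.0256 from limma) passed, and without the first KDM2A did (0.32, adjusted p = 0.0439 from limma). Without the first, COMMD1 was at 0.36 and SOCS1 at 0.40, neither called. Scaling to total reads moved the median of all genes to -0.14 and the share of called genes that were above 0 from 51.7% to 32.9%. Under it PDLIM2 (0.43, adjusted p = 0.102 from limma) was no longer called, and with no filter on low reads PDLIM2 (adjusted p = 0.0808) and NSD1 were not.

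SETD7 (ENSG00000145391) is on chromosome 4, minus strand, positions 139495941 to 139606699 of GRCh38, with 13916 bases of exon. It was at 3.53 and 5.72 FPKM in control cells and at 10.1 and 10.5 FPKM in KD cells without TNF-α. With TNF-α it was at 5.62 and 5.27 FPKM in control cells and at 5.25 and 5.34 FPKM in KD cells. The unstimulated KD libraries were above all others, and the other groups overlapped. The mean was 2.23 times higher in KD than in control cells without TNF-α, a log2 fold change of 1.03 (95% interval 0.64 to 1.43, adjusted p = 0.00125 from limma). With TNF-α the KD effect was -0.03 (95% interval -0.42 to 0.36, adjusted p = 0.998 from limma). The difference between these effects was -1.07 (SE 0.238, adjusted p = 0.00881 from limma). The unstimulated control libraries differed from each other by 0.57 on the log2 scale, and the KD effect was 0.75 without the first of them and 1.32 without the second. Relative to RELA in the same library, SETD7 was at 0.129 and 0.198 in unstimulated control cells, at 0.617 and 0.664 in unstimulated KD cells, and between 0.127 and 0.137 in the 4 libraries with TNF-α. The ratio was not corrected for GC content, which was 44.2% for SETD7 and 57.1% for RELA.

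NSD1 (ENSG00000165671), on chromosome 5, plus strand, positions 177133025 to 177300215, encodes a lysine methyltransferase of histone H3 that also methylates RelA. Its levels were 3.84 and 6.53 FPKM in control cells, 10.4 and 11.95 FPKM in KD cells, 5.73 and 5.36 FPKM in control cells with TNF-α, and 5.26 and 5.15 FPKM in KD cells with TNF-α. As for SETD7, both unstimulated KD libraries were above all others. Without TNF-α the KD effect was 1.01 (SE 0.189, adjusted p = 0.00250 from limma). With it the KD effect was -0.08 (95% interval -0.52 to 0.36). Its interaction of -1.08 (adjusted p = 0.0131 from limma) had an adjusted p of 0.0532 when the second unstimulated KD library was left out and of 0.0529 with no filter on low reads.

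PRMT5 (ENSG00000100462), on chromosome 14, minus strand, positions 22920511 to 22929585, encodes an arginine methyltransferase that acts on histones, splicing proteins and RelA. It was at 34.2 and 33.1 FPKM in control cells and at 19.2 and 17.8 FPKM in KD cells without TNF-α. With TNF-α it was at 34.9 and 34.2 FPKM in control cells and at 34.8 and 32.2 FPKM in KD cells. Its replicates lay close together, and both unstimulated KD libraries were far below the other 6. The KD effect without TNF-α was -0.83 (95% interval -1.01 to -0.65, adjusted p = 1.78e-04 from limma), and the KD mean was 0.551 times the control mean. With TNF-α the KD effect was -0.04, with a 95% interval from -0.22 to 0.13, the narrowest of the 9 genes. An antisense gene, PRMT5-AS1, covers 27.1% of the exon bases of PRMT5 but had 29 reads in the 8 libraries together, against 13879 for PRMT5.

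KDM2A (ENSG00000173120), on chromosome 11, plus strand, positions 67119269 to 67258087, encodes a demethylase of histone H3 that also removes the methyl groups that NSD1 places on RelA. It was at 8.997 and 12.4 FPKM in control cells and at 10.6 in both libraries of KD cells without TNF-α. With TNF-α it was at 13.98 and 15.4 FPKM in control cells and at 15.8 and 16.1 FPKM in KD cells. All 4 libraries with TNF-α were above all 4 without. The KD effect without TNF-α was 0.00 (95% interval -0.30 to 0.31), and it was -0.21 or 0.21 when the first or the second control library was left out. TNF-α in control cells gave a log2 fold change of 0.44 (SE 0.132, adjusted p = 0.131 from limma). It was 0.23 (adjusted p = 0.176 from limma) without the first unstimulated control library and 0.65 (adjusted p = 0.00529 from limma) without the second. TNF-α in KD cells gave 0.55 (SE 0.132, adjusted p = 0.00774 from limma).

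HDAC3 (ENSG00000171720), on chromosome 5, minus strand, positions 141620876 to 141636870, encodes the catalytic subunit of nuclear corepressor complexes, which takes acetyl groups off histones and off RelA. Its levels were 14.95 and 13.6 FPKM in control cells, 8.27 and 8.01 FPKM in KD cells, 13.7 and 12.7 FPKM in control cells with TNF-α, and 13.997 and 12.8 FPKM in KD cells with TNF-α. The unstimulated KD libraries were below the other 6, which overlapped. The KD effect was -0.74 (SE 0.0890, adjusted p = 3.71e-04 from limma) in unstimulated cells and 0.02 (95% interval -0.19 to 0.22) with it. The sign of the latter was negative under upper-quartile scaling and under scaling to total reads.

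SIRT1 (ENSG00000096717), on chromosome 10, plus strand, positions 67884669 to 67918390, encodes the other deacetylase, which needs NAD and deacetylates RelA at a lysine required for full transcriptional activity. Between unstimulated KD and control cells it moved opposite to HDAC3. Its levels were 3.06 and 3.87 FPKM in control cells, 7.62 and 7.91 FPKM in KD cells, 3.40 and 3.35 FPKM in control cells with TNF-α, and 3.26 and 2.85 FPKM in KD cells with TNF-α. The KD effect was 0.98 (SE 0.118, adjusted p = 3.68e-04 from limma) in unstimulated cells and -0.11 (95% interval -0.38 to 0.16) with it. The ratio of SIRT1 to HDAC3 was 0.205 and 0.285 in unstimulated control cells, 0.921 and 0.988 in unstimulated KD cells, and 0.223 to 0.264 in the 4 libraries with TNF-α. The GC content of these genes differs, 40.5% for SIRT1 and 52.7% for HDAC3, and the ratio was not corrected for it.

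COMMD1 (ENSG00000173163), on chromosome 2, plus strand, positions 61888724 to 62147247, encodes a factor that promotes ubiquitination of RelA by a cullin ligase in which SOCS1 takes part. It was at 20.9 and 12.6 FPKM in control cells and at 10.3 and 7.69 FPKM in KD cells without TNF-α. With TNF-α it was at 15.3 and 17.5 FPKM in control cells and at 15.5 and 15.1 FPKM in KD cells. The KD effect without TNF-α was -0.80 (95% interval -1.31 to -0.30, adjusted p = 0.0138 from limma). It was -0.46 without the first control library, and -0.61 with an adjusted p of 0.0959 from limma without the second KD library. With no filter on low reads its adjusted p was 0.0578. The rise with TNF-α in KD cells, 0.71 (adjusted p = 0.0217 from limma), lost its call without the second unstimulated KD library (0.52, adjusted p = 0.137) or without either stimulated KD library (adjusted p = 0.0785 and 0.0684). Its exons overlap CCT4, an abundant chaperonin gene on the opposite strand, over 81 bases, 3.39% of its exon length. A processed pseudogene on the same strand, RPSAP26, covers 31.0% of its exon bases and had 0 reads. An antisense gene, AC018462.1, covers 10.5% and had 7 reads in the 8 libraries together. Whether reads were assigned by strand is not given in the sources used here.

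PDLIM2 (ENSG00000120913), on chromosome 8, plus strand, positions 22578279 to 22598025, encodes a nuclear ubiquitin ligase that sends RelA to degradation. Its levels were 5.19 and 3.85 FPKM in control cells, 2.32 and 2.09 FPKM in KD cells, 4.56 and 4.95 FPKM in control cells with TNF-α, and 3.86 and 4.67 FPKM in KD cells with TNF-α. Both unstimulated KD libraries were the lowest of the 8. The KD effect was -0.78 (SE 0.144, adjusted p = 0.00236 from limma) in unstimulated cells and -0.13 (95% interval -0.46 to 0.20) with it. The difference between these effects, 0.64 (adjusted p = 0.0336 from limma), kept its call in 2 of the 8 fits that each left out 1 library, and its adjusted p was between 0.00617 and 0.118 in them. The refits with the call were those without the second unstimulated control library and without the first stimulated KD library.

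SOCS1 (ENSG00000185338), on chromosome 16, minus strand, positions 11254405 to 11256200, encodes a substrate receptor of cullin ligases that limits cytokine signalling and also targets RelA. It was the member with the fewest reads, between 77 and 245 per library, and the one with the highest GC content. It was at 9.10 and 6.66 FPKM in control cells and at 4.298 and 4.53 FPKM in KD cells without TNF-α. With TNF-α it was at 3.64 and 2.92 FPKM in control cells and at 2.48 and 3.56 FPKM in KD cells. Both unstimulated control libraries were the highest, both unstimulated KD libraries came next, and the 4 libraries with TNF-α overlapped one another below them. TNF-α in control cells gave SOCS1 a log2 fold change of -1.04 (95% interval -1.46 to -0.63, adjusted p = 0.0198 from limma). The call was lost without the first unstimulated control library (-0.84, adjusted p = 0.0563) or without the first or the second stimulated control library (adjusted p = 0.0700 and 0.146), with no filter on low reads (0.0949) and in a fit of only the libraries compared (0.0655). In KD cells the value was -0.44 (95% interval -0.86 to -0.03, adjusted p = 0.0617 from limma). Its adjusted p was 0.0485 for genes with a mean of at least 1 CPM, 0.0368 under upper-quartile scaling and 0.0346 in a fit of only the libraries compared. The difference between the 2 responses, 0.60, had an adjusted p of 0.0874 from limma, so the responses were not shown to differ. The KD effect without TNF-α, -0.70 (adjusted p = 0.0105 from limma), was -0.50 without the first control library (adjusted p = 0.0541) and -0.67 without the first KD library (adjusted p = 0.0530).

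Since RelA acts by binding DNA, the promoters of the genes are of interest beside their response to TNF-α. The 250 bases before the transcription starts listed by RefSeq (GRCh38.p14) were searched on both strands for the NF-κB consensus motif of 10 bases, counting a position once where both strands matched. Of 35116 such windows in the genome, 9.96% held the motif. Of 15 windows of 8 of the genes, all but PDLIM2, 3 held it. They belonged to HDAC3, COMMD1 and SOCS1, with 1 match each, starting 107, 68 and 67 bases before the start. The sequences shown are those of SOCS1, which fell with TNF-α in control cells, of COMMD1, which did not pass that test, and of NFKBIA, which rose, each 5′ to 3′ on the strand of the gene with the motif in capitals. The SOCS1 window is chr16:11256205-11256454 on the minus strand, the COMMD1 window chr2:61888475-61888724 on the plus strand and the NFKBIA window chr14:35404750-35404999 on the minus strand.
SOCS1: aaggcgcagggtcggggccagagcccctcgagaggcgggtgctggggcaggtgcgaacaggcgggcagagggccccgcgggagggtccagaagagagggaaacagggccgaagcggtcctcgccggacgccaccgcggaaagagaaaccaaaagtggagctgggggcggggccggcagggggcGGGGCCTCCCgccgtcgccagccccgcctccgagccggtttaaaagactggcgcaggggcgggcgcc
COMMD1: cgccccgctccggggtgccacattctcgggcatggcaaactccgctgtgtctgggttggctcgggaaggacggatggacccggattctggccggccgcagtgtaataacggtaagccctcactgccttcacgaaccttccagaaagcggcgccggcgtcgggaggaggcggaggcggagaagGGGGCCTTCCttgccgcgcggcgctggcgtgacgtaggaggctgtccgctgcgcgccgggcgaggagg
NFKBIA: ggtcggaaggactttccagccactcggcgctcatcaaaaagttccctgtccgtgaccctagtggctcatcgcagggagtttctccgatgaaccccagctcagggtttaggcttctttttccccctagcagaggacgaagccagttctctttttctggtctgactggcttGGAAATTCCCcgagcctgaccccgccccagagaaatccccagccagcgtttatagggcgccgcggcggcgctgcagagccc
The 3 genes each held 1 match while their values under TNF-α in control cells were -1.04, 0.01 and 2.76. A match is a run of letters and not a measured binding site.

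The 9 genes differ in base composition. The GC content of the longest transcript was 40.5% for SIRT1, 44.2% for SETD7, 47.2% for NSD1, 48.8% for COMMD1, 51.6% for KDM2A, 51.9% for PRMT5, 52.7% for HDAC3, 57.2% for PDLIM2 and 69.1% for SOCS1. The 3 genes higher in unstimulated KD cells were thus the 3 lowest in GC content. Over 16520 genes with a GC content, whose median was 48.7%, Spearman's rho between GC content and the KD effect was -0.68 without TNF-α and 0.03 with TNF-α, a description over genes that share the same libraries. With TNF-α in KD cells it was 0.68, and with TNF-α in control cells 0.07.

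**Figure D3:**
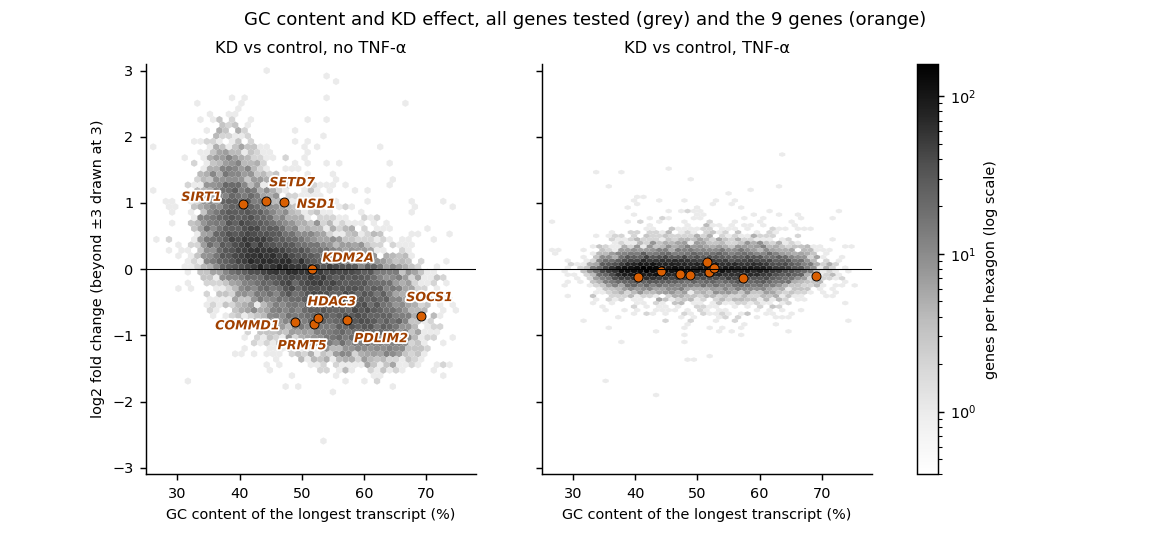
GC content of the longest transcript in percent (horizontal axis) against the KD effect on the log2 scale (vertical axis) for all genes tested, shown as hexagons shaded by the number of genes, and for the 9 genes (orange points, named in the left panel). Without TNF-α (left) the cloud slopes down and the 9 genes lie in or near it, with SIRT1, SETD7 and NSD1 at the upper left; with TNF-α (right) the cloud is flat and all 9 lie between -0.13 and 0.11.

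After a spline correction of every library for GC content and exon length, 7 of the 9 genes were called without TNF-α, 3 higher, where 24% of all genes tested were, and 4 lower, where 28.2% were. SETD7 moved from 1.03 to 0.59, NSD1 from 1.01 to 0.76 and SIRT1 from 0.98 to 0.52. PRMT5 moved to -0.55, HDAC3 to -0.48, COMMD1 to -0.62 and PDLIM2 to -0.58. SOCS1 moved to -0.03 (adjusted p = 0.872 from limma). The response of SOCS1 to TNF-α was then -1.08 (adjusted p = 0.00799 from limma) in control cells and -1.17 (adjusted p = 7.84e-04 from limma) in KD cells. In KD cells the response of PDLIM2 to TNF-α became 0.38 (adjusted p = 0.0615 from limma). What part the composition and the mitochondrial share of the unstimulated KD libraries have in the values that remain was not tested.

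**Figure D4:**
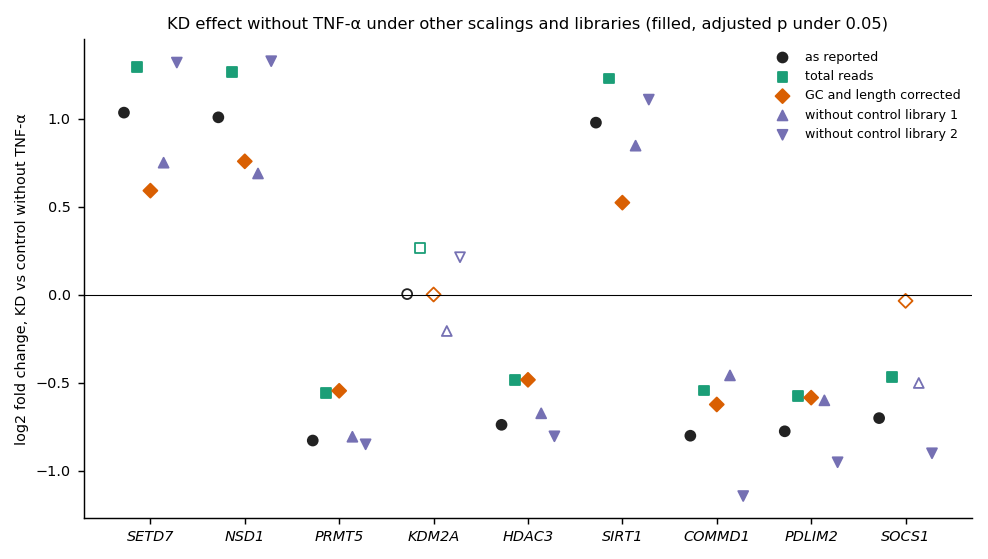
KD effect on the log2 scale without TNF-α (vertical axis) for the 9 genes (horizontal axis) as reported, after scaling to total reads, after the GC and length correction, and without either control library; filled symbols have an adjusted p under 0.05. SETD7, NSD1 and SIRT1 stay above 0 and PRMT5, HDAC3, COMMD1 and PDLIM2 below 0 in all 5 settings, while SOCS1 after the correction and without the first control library, and KDM2A in all 5, are open symbols.

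RELA (ENSG00000173039), the substrate of these enzymes, was at 27.3 and 28.9 FPKM in control cells and at 16.3 and 15.8 FPKM in KD cells without TNF-α. With TNF-α it was at 41.0 and 39.9 FPKM in control cells and at 41.4 and 39.3 FPKM in KD cells. It rose with TNF-α in control cells by 0.51 (SE 0.0719, adjusted p = 0.00828 from limma). The call was lost in a fit of only the libraries compared (adjusted p = 0.107 from limma). It was also lost without either stimulated control library, with a rise of 0.49 without the first and 0.53 without the second. KD and control cells with TNF-α overlapped (0.00, 95% interval -0.17 to 0.16). SOCS1 relative to RELA was at 0.333 and 0.231 in control cells and at 0.0888 and 0.0734 in control cells with TNF-α.

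Beyond the 9, 40 further genes whose products modify RelA or turn it over were counted from a list, all of them tested. Without TNF-α, 12 (30%) were higher and 17 (42.5%) lower in KD cells, against 29.8% and 30.2% of all genes tested. The 17 include WSB2, the target of the shRNA, whose fall was set by the design. Their median on the log2 scale was -0.21, against -0.00 for all genes. With TNF-α, WSB2 was the 1 gene of the 40 called, and the median was -0.02. TNF-α in control cells called 0 of the 40 with limma, 5 at an unadjusted p under 0.05 and 0 with voom, and in KD cells 16 (40%) rose and 13 (32.5%) fell, against 31.1% and 31.4% of all genes tested. The interaction was called above 0 for 13 (32.5%) and below 0 for 10 (25%), against 23.8% and 22.3%.

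By role, RelA ubiquitination was the largest group of the list. Of its 19 genes, 6 were higher and 11 lower in KD cells without TNF-α. Among the 11 was WSB2, the target of the shRNA, with a log2 fold change of -1.61. Of all genes tested, 29.8% were higher and 30.2% lower. CUL2 and CUL5, the cullin scaffolds, and ELOB, the adaptor protein that joins them to SOCS-box receptors, moved in opposite directions. CUL2 was at 3.65 and 3.72 FPKM in control cells and at 9.02 and 11.2 FPKM in KD cells, a log2 fold change of 1.24. CUL5 was at 2.05 and 1.92 FPKM in control cells and at 7.18 and 7.11 FPKM in KD cells, a log2 fold change of 1.45. ELOB was at 332 and 207 FPKM in control cells and at 99.8 and 90.6 FPKM in KD cells, a log2 fold change of -1.46. After the GC and length correction the values were 0.72 for CUL2 and for CUL5 and -0.87 for ELOB, all called. With TNF-α, CUL5 and ELOB differed between KD and control cells by -0.10 and -0.08 on the log2 scale, without a call, and CUL2 by -0.10, also without one. STUB1, a chaperone-linked ubiquitin ligase, was higher with than without TNF-α in KD cells by 1.37. After the GC and length correction the value was 0.67. STUB1 was at 24.4 and 16.6 FPKM in unstimulated KD cells, below all other libraries, and at 51.5 and 56.4 FPKM in KD cells with TNF-α. In control cells it was at 57.9 and 44.8 FPKM without TNF-α and at 48.8 and 61.8 FPKM with it. Its response to TNF-α in control cells was 0.11, and its KD effect with TNF-α was -0.03, neither called. WSB1, the relative of WSB2, was higher in KD cells without TNF-α by 0.94 (adjusted p = 5.07e-04 from limma), or by 0.38 (adjusted p = 0.0108 from limma) after the correction. With TNF-α the value was 0.25 (95% interval -0.03 to 0.54, adjusted p = 0.673 from limma).

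Of the other roles, methylation had 1 of 5 genes higher and 2 lower in KD cells without TNF-α, acetylation 2 of 7 higher and 2 lower, and phosphorylation 3 of 9 higher and 2 lower. These small counts stand beside the same 29.8% and 30.2% of all genes, and nothing is read from them. With TNF-α none of the genes of these 3 roles was called by limma or by voom, and 1 gene each of methylation and phosphorylation had an unadjusted p under 0.05.

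The genes whose levels followed SETD7 most closely were found by the root mean square difference of log2(FPKM + 1), centred on each gene's mean, over the 8 libraries. The 5 nearest of 16527 genes were CHD6 (0.0390), DYNC1LI2 (0.0443), SEL1L (0.0452), PTBP3 (0.0480) and WWC2 (0.0516). The median difference over all genes was 0.446, and a flat gene would be at 0.423. Each of the 5 was higher in unstimulated KD cells than in the other groups, which follows from picking them by likeness to SETD7. DYNC1LI2, for instance, was at a mean of 14.3 FPKM there against 6.40 in unstimulated control cells. By this measure NSD1 had rank 29 and SIRT1 rank 760, and the other 6 genes of the 9 had ranks between 10774 and 14803. The longest transcripts of the 5 genes have a GC content of 36.6% to 47.2%, and all their annotated exons a length of 8239 to 14126 bases.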

How the data were processed

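The labels place 8 RNA-seq libraries in 4 groups. The authors deposited FPKM values for 58735 genes per library. The submitters' processing notes name fastp, HISAT2 2.0.5, featureCounts 1.5.0-p3 and DESeq2 1.20.0 with GRCh38, and the study's methods name edgeR. Each value times exon length came out as whole reads (tolerance 0.01) for 100% of values, 15601098 to 18677023 reads per library. The authors scaled all 8 libraries together, by median-of-ratios factors. Identifiers and positions matched release 29 of GENCODE.

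limma 3.58.1 in R 4.3.3 fitted group means to log2(FPKM + 1) with a variance trend (4 residual degrees of freedom), for genes reaching 10 reads, at median depth, in 2 or more libraries and 15 reads in total. Adding 1 to FPKM understates fold changes, most for genes near or below 1 FPKM but also for genes of several FPKM. The KD effect of CUL5 without TNF-α was 1.45 in this fit and 1.85 with voom. Simulated reads tested the script. All 9 genes, RELA, WSB1, WSB2, NFKBIA and TNFAIP3 were named throughout, with the 3 largest called changes of the further list in each comparison and the 5 genes nearest SETD7. Genes and lists were chosen with earlier results of these data known. Python 3.11.15, numpy 2.4.6, pandas 2.3.3 and matplotlib 3.10.9 were used. Alternatives were a pseudocount of 0.1, other filters and scalings, a GC and length correction (splines, 5 degrees of freedom), voom, fewer libraries and replicate blocks.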

Additional observations from a re-analysis of the deposited data

Results flagged for a closer look

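For each gene named here the KD effect with TNF-α differed from the KD effect without TNF-α, by the interaction term of limma at an adjusted p under 0.05. All of these values use the unstimulated KD libraries, which stood apart in mitochondrial share and GC content. The difference of the 2 effects on the log2 scale was -1.07 for SETD7, -1.08 for NSD1 and -1.09 for SIRT1. It was 0.78 for PRMT5, 0.76 for HDAC3 and 0.64 for PDLIM2. Among the other genes named, it was 0.77 for RELA, -1.55 for CUL5, 1.38 for ELOB and -1.34 for CUL2. After the GC and length correction the values were -0.63 for SETD7, -0.85 for NSD1, -0.63 for SIRT1, 0.49 for PRMT5 and 0.48 for HDAC3, all called, and 0.45 for PDLIM2 (adjusted p = 0.135 from limma), not called. For the other genes they were 0.38 for RELA, -0.81 for CUL5, 0.81 for ELOB and -0.82 for CUL2, all called. The part of base composition in these differences was not tested further. Groups of 2 libraries allow no test for an outlying library.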

How the results depend on the processing

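Each member's value was recomputed under each alternative that gives the comparison. The fits of only the libraries compared give no interaction, the 6 libraries give 2 of the 5 comparisons, and the crossed block was used for counts of genes in 1. KD against control with TNF-α gave 0 members in every setting run for members. With no filter on low reads, the genes called were 7 there and 368 for TNF-α in control cells, where 0 members were called. With only the libraries compared they were 39 and 238 (0 members), and in 6 libraries, a setting chosen after seeing the data, 7 and 443. The GC and length correction gave 68 genes and voom 52 genes for KD against control with TNF-α. The replicate block gave 10 genes there and 566 for TNF-α in control cells, and no member's call changed under the block. The correlation of deviations between same-numbered libraries ran from -0.19 to 0.35, the highest between unstimulated control and KD cells. No label ties the numbers to a shared batch, so the libraries were not taken as paired. The crossed replicate block, chosen after seeing the data, called 756 genes for TNF-α in control cells. With 1 library left out at a time, the genes called ranged from 0 to 98 for KD against control with TNF-α and from 229 to 2130 for TNF-α in control cells, with 0 to 4 members.

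Direction turned only where a member was not called. For KD against control with TNF-α, HDAC3 was at -0.0071 under upper-quartile scaling and -0.0022 under scaling to total reads. For TNF-α in control cells PRMT5 was at -0.0307 and -0.0380 and COMMD1 at -0.0589 and -0.0653 under those scalings, and PDLIM2 at -0.0697 after the GC and length correction. In the interaction KDM2A was at -0.17 under scaling to total reads and SOCS1 at -0.0874 after the correction. With 1 library left out, KD against control ranged from -0.21 to 0.21 for KDM2A without TNF-α. With TNF-α it ranged from -0.0721 to 0.0057 for SETD7, -0.0987 to 0.0108 for PRMT5, -0.0454 to 0.0789 for HDAC3, -0.294 to 0.0952 for SOCS1 and -0.0406 to 0.0345 for RELA. TNF-α in control cells ranged from -0.0603 to 0.509 for SETD7, -0.20 to 0.44 for NSD1, -0.16 to 0.11 for SIRT1, -0.34 to 0.35 for COMMD1 and -0.11 to 0.24 for PDLIM2. The interaction of KDM2A ranged from -0.10 to 0.32. The cause was not tested. A fit that leaves a group with 1 library assumes that it varies like the others. With 2 libraries per group and 77 reads of SOCS1 in the shallowest, small differences were beyond this depth.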
